A study of Mus musculus with 4 samples.

Results

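Collagen genes encode the alpha chains of the collagens, the proteins that give the extracellular matrix its strength. Members were taken by name: every probe other than a control whose gene name in the array files was Col, a number, the letter a and a number. This gave 68 of 55681 probes and 43 of 35080 gene names on the array. They comprise 11 fibrillar chains, 6 chains of type IV, 6 of type VI, 3 network-forming chains, 9 fibril-associated chains with interrupted helices (FACIT), 4 transmembrane chains, 2 multiplexins, and Col7a1 and Col28a1. The values come from primary mouse hepatocytes of mice of the strain labelled bl6, 2 samples given GW3965 and 2 given DMSO, each on its own Agilent array. GW3965 activates LXR, the liver X receptors, which sense cholesterol derivatives and switch on genes, and it was given at 1 µM overnight. Its vehicle, DMSO, was given to the controls. Every sample also had 5 µM simvastatin, a statin, and 100 µM mevalonic acid, which bypasses the step that a statin blocks, and serum was lowered to 0.5%, against 10% during culture. Within each treatment the samples are lettered a and b. The labels do not say whether the letters mark separate animals, cultures or days. So no p-value below measures more than the spread between these samples, which may be technical.

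A collagen chain is a long run of repeats of glycine and other residues, of which proline and hydroxyproline are common, and chains wind around each other into a triple helix. Fibrillar collagens bundle into the cables of interstitial tissue, type IV forms the sheet of basement membranes, and the FACIT chains sit on fibril surfaces. In the liver, stellate cells are known as the main makers of fibrillar collagen in scarring, endothelial cells and stellate cells make type IV, and hepatocytes are a known source of type XVIII.

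The glycine repeat can be read in the array's own probes, and 2 of the 68 collagen probes had GGN (any glycine codon) at every 9th base along their whole length of 60 bases. Of all 55681 probes, 6 had it, which is 0.0108%, against 2.94% of the collagen probes. Both are shown 5′ to 3′ because they carry the sequence signature of the family, with the glycine codons in capitals, for Col15a1 at chr4:47283786-47283845 and for Col25a1 at chr3:130270497-130270556, both on the plus strand of mm9.
Col15a1: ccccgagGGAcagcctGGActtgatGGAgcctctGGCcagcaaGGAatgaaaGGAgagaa
Col25a1: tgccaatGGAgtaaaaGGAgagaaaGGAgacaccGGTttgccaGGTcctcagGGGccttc

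The starts of genes were read from the RefSeq promoter table (GRCm38.p6), whose windows run from 250 bases before to 50 bases after a start. It held 38 windows for 35 of the collagen genes. Col4a1 and Col4a2, which encode the chains of the common type IV collagen, lie head to head on opposite strands. Their 5′ ends overlap, with starts 21 bases apart, and their windows share 78 bases. Col4a6 and Col4a5 also lie head to head, but without overlap, with starts 1343 bases apart and no shared window bases. Whether such a layout bears on the levels below was not tested. The window of Col4a1, minus strand of chr8:11312777-11313076, is shown with the bases shared with Col4a2 in capitals. The window of Col1a2, plus strand of chr6:4505368-4505667, is the promoter of a type I chain and is shown with its 2 CCAAT matches and 2 GGGCGG matches in capitals, on either strand, where ATTGG is CCAAT read on the other strand.
Col4a1: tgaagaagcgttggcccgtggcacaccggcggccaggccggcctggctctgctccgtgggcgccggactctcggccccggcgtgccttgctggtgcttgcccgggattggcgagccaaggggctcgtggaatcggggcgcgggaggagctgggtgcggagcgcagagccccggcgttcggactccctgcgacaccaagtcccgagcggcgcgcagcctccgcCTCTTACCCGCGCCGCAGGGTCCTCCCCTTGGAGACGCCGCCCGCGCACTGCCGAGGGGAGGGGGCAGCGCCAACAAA
Col1a2: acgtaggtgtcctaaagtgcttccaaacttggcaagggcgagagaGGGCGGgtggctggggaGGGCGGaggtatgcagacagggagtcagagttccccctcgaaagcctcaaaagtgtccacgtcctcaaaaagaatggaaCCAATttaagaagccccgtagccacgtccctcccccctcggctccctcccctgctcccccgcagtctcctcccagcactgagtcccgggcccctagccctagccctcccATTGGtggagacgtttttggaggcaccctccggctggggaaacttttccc

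On either strand, GGGCGG (a GC box) was found in 23 of the 38 collagen windows, or 60.5%, against 35.7% of all 32851 windows. CCAAT was in 13, or 34.2%, against 37.4% of all, and TATAAA in 5, or 13.2%, against 13.6%. A match is a description of these letters and not a bound site.

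Levels are given as log2 of the background-corrected signal minus the 75th percentile of that array, and levels of different probes are not set against each other. All 4 arrays were on 1 slide, with the a samples at positions 1 and 2 and the b samples at 3 and 4, so letter and position cannot be told apart. By the scanner software's own flag, well above background were 64.1% and 69.1% of probes on the GW3965 arrays (a and b) and 62.5% and 65.2% on the DMSO arrays. Abca1, the cholesterol exporter that LXR is known to switch on, read 3.31 and 3.85 with GW3965, against 1.46 and 0.55 with DMSO in the same order. The GW3965 arrays lay above the DMSO arrays, and so they did for Srebf1, the LXR target that drives fatty acid synthesis, at 0.37 and 0.43 with GW3965, against -0.96 and -0.72 with DMSO. Markers of the labelled cell type were present. Of 10 hepatocyte markers, 9 had a probe under their name, and all 9, among them Alb and Ttr, were well above background on all arrays.

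Of the 43 collagen genes, 30 were measured, meaning that both arrays of 1 treatment or more read a probe well above background, and 27 of them were so on all 4 arrays. The measured genes were 8 of 11 fibrillar chains, 5 of 6 type IV chains, 3 of 6 type VI chains, 1 of 3 network chains, 8 of 9 FACIT chains, 2 of 4 transmembrane chains, both multiplexins, and Col7a1. No array showed Col2a1 or Col11a1, which are cartilage chains, Col10a1, the chain of growth-plate cartilage, or Col17a1, a chain of skin hemidesmosomes, well above background. Col13a1, Col24a1, Col28a1, Col4a3, Col6a4, Col6a5, Col6a6 and Col9a3 were not either, and Col8a1 was so on 1 array. A probe that stays at background gives only an upper bound, so these 13 genes carry no comparison. An older name, Emid2, hides a gene that RefSeq now calls Col26a1, and it is not a member by the rule.

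No collagen gene passed the test for GW3965 against DMSO. With limma, 0 of the 30 had an adjusted p under 0.05, and over all 24637 genes 0 had (0.0%). At an unadjusted p under 0.05 there were again 0 collagen genes, against 203 of all genes (0.824%), and the smallest unadjusted p of a collagen gene was 0.10, for Col8a2. With the letter as a replicate block, 15 of all genes passed (0.0609%) and again 0 collagen genes, while 3 of 30 (Col12a1, Col15a1 and Col8a2) had an unadjusted p under 0.05, against 5.41% of all genes. The collagen genes leaned to a higher mean with GW3965 in 23 of 30, or 76.7%, where 48.5% of all genes had a higher mean, and their median log2 difference was 0.13 against -0.0061 for all genes. Set against the DMSO array of the same letter, GW3965 was higher in both letters for 19 of 30 genes (63.3%) and lower in both for 3 (10.0%), against 25.4% and 24.4% of all genes. Under the other scalings, 20 or 21 of the 30 had a higher mean. Without any 1 array 18 to 20 had, against 45.2% to 56.5% of all genes. The lean over all genes was smaller without any 1 array, whichever it was, than with all arrays. It was smallest without DMSO replicate b, at 66.7% of collagen genes against 56.5%. The lean as a whole was given no test. Endothelial markers leaned the same way, with a higher mean in 9 of 10 and a median difference of 0.15, and their sums were 44.1 and 58.9 with GW3965 against 41.5 and 55.6 with DMSO. The other marker lists did not lean so: a higher mean was seen in 3 of 9 hepatocyte and 6 of 12 stellate cell and fibroblast markers. It was seen in 4 of 8 macrophage and leukocyte and 3 of 6 cholangiocyte markers. The part of any marker list in the lean was not tested. The treatments' arrays did not overlap for 5 of the 30 genes (16.7%), against 16.0% of all genes, a share near that of all genes. All 5 were higher with GW3965, which is 16.7% of the 30, against 9.41% of all genes. Among all genes without overlap, 2319 of 3932 were higher. The 5 were Col4a4, Col5a1, Col6a2, Col8a2 and Col9a1. Col8a2 was kept through the GW3965 arrays alone, and another measured probe of Col4a4 gave -0.17. With 2 arrays against 2, an exact permutation test of one gene cannot give a p below 0.333.

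**Figure D1:**
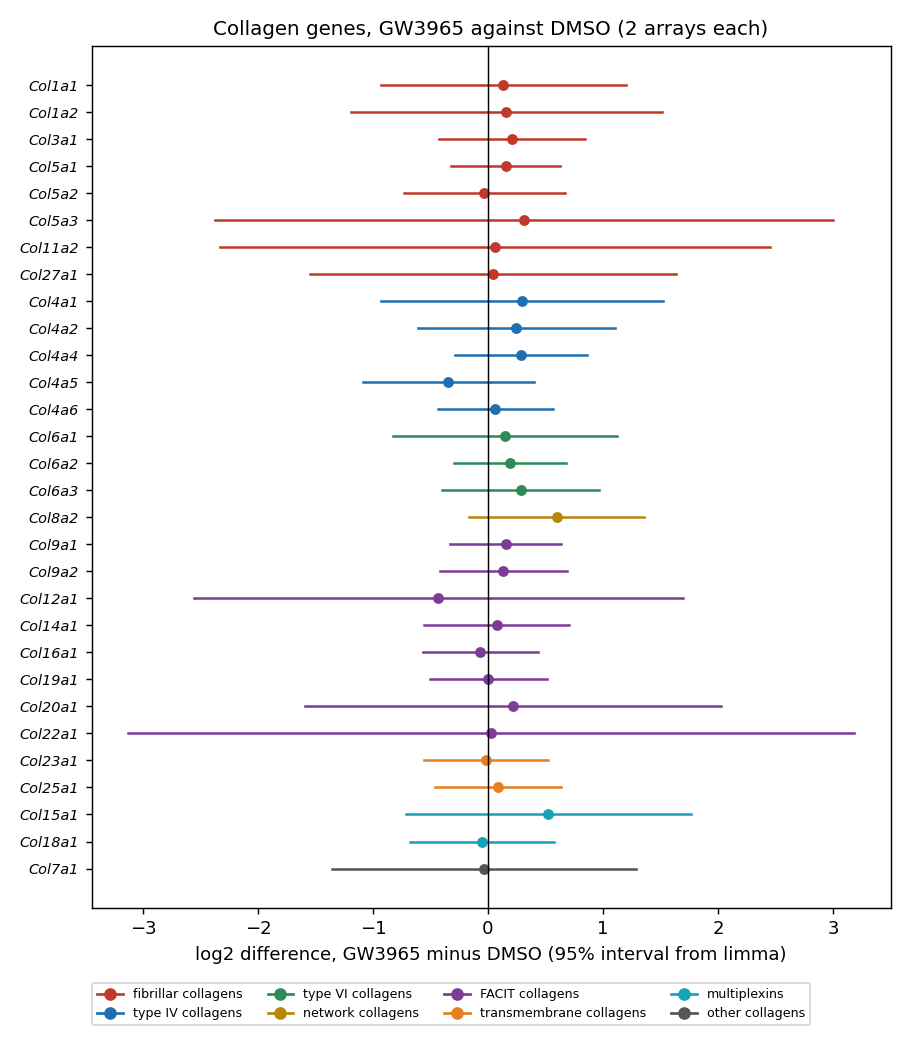
Log2 difference, GW3965 minus DMSO, of the 30 measured collagen genes by class, with bars for the 95% confidence interval of the limma fit of treatment alone (2 arrays per treatment). Each interval spans 0, and the widest, for Col22a1, runs from -3.13 to 3.18.

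Among fibrillar chains, those of type I are the bulk of interstitial collagen. Col1a1 read 1.30 and 1.94 with GW3965, against 1.03 and 1.94 with DMSO, for samples a and b in this order here and below. The treatments overlapped, and the log2 difference was 0.13 ± 0.41 (SE). Errors of treatment differences here and below are from the fit without the letter, so the gap between letters counts in them. With the letter fitted, the error was 0.14 for Col1a1 and, for Col12a1 below, 0.13. Col1a2, its partner chain, read 1.76 and 2.70 with GW3965, against 1.499 and 2.65 with DMSO, a difference of 0.16 ± 0.52. Col3a1, the type III chain of soft tissue, read 1.62 and 1.90 with GW3965, against 1.35 and 1.76 with DMSO, with a difference of 0.21 ± 0.24. In these 3 genes a GW3965 array was highest or level with the highest, but the DMSO arrays reached into the GW3965 range.

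Type V chains help set how thick fibrils grow. For Col5a1 the level was 0.55 and 0.59 with GW3965, against 0.44 and 0.39 with DMSO. This was the fibrillar chain whose treatments did not overlap. The difference, 0.16 ± 0.18, was smaller than its error, which was 0.13 with the letter fitted. Col5a2 read -5.37 and -4.93 with GW3965, against -5.34 and -4.90 with DMSO, which overlapped. Col5a3 read 0.57 and -1.41 with GW3965, against 0.46 and -1.93 with DMSO, so that the letters differed far more than the treatments. The difference of 0.31 ± 1.03 had an error over 3 times its size, which was 0.15 with the letter fitted. The remaining fibrillar chains are those of cartilage, Col11a2 and Col27a1. Col11a2 stood at -4.20 and -2.17 with GW3965, against -4.17 and -2.32 with DMSO, and Col27a1 at -0.57 and -1.79 with GW3965, against -0.57 and -1.87 with DMSO. Their differences, 0.060 ± 0.91 and 0.042 ± 0.61, were close to 0 with wide errors.

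In type IV, Col4a1 and Col4a2 form the network found in nearly all basement membranes. Col4a1 read 2.45 and 3.58 with GW3965, against 2.37 and 3.06 with DMSO, a log2 difference of 0.30 ± 0.47. Col4a2 gave 2.96 and 3.64 with GW3965, against 2.81 and 3.29 with DMSO, a difference of 0.25 ± 0.33. In both genes each GW3965 array exceeded the DMSO array of the same letter, while the treatments overlapped. The chains of more restricted basement membranes, such as that of the kidney glomerulus, include Col4a4, at -2.97 and -2.75 with GW3965, against -3.31 and -2.99 with DMSO. Its treatments did not overlap (difference 0.29 ± 0.22), but another of its probes gave -0.17. Col4a5, the chain mutated in X-linked Alport syndrome, read -3.87 and -4.09 with GW3965, against -3.32 and -3.96 with DMSO, and with a difference of -0.34 ± 0.28 it was the 1 type IV chain with a lower mean. Col4a6, which lies beside it on the X chromosome, read -1.79 and -1.80 with GW3965, against -1.96 and -1.76 with DMSO, with overlap.

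Type VI chains form beaded filaments next to cells. Col6a1 was at 0.58 and -0.031 with GW3965, against 0.52 and -0.27 with DMSO, and the difference was 0.15 ± 0.37. Col6a2 was at -1.88 and -2.03 with GW3965, against -2.13 and -2.17 with DMSO, without overlap, and the difference was 0.19 ± 0.19. Col6a3, the long chain whose end is cut off as endotrophin, was at -0.12 and -0.42 with GW3965, against -0.31 and -0.80 with DMSO, with a difference of 0.29 ± 0.26. All 3 had a higher mean with GW3965, and none passed the test.

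FACIT chains decorate fibrils. Col9a1, a cartilage chain, read -4.11 and -3.99 with GW3965, against -4.17 and -4.24 with DMSO, and its treatments did not overlap, at a difference of 0.15 ± 0.19. Col9a2 read -2.17 and -2.43 with GW3965, against -2.33 and -2.54 with DMSO. Col12a1, which sits on type I fibrils of tendon and other dense tissue, read -2.03 and -3.75 with GW3965, against -1.60 and -3.32 with DMSO, the largest lower mean of the collagen genes, at -0.43 ± 0.81. Letters again set the range of this gene, since the b arrays of both treatments were lowest. Col14a1, close to Col12a1 in structure, read 0.91 and 0.59 with GW3965, against 0.86 and 0.48 with DMSO. Col16a1 read -0.18 and -0.22 with GW3965, against -0.040 and -0.23 with DMSO. In Col14a1 and Col16a1 the 4 arrays were near each other and the treatments overlapped.

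Col20a1 read -2.77 and -1.30 with GW3965, against -2.97 and -1.54 with DMSO, a difference of 0.22 ± 0.69. Col22a1, a chain of tissue junctions such as that of muscle and tendon, read -1.18 and -3.76 with GW3965, against -1.19 and -3.80 with DMSO, nearly the same with each treatment at a given letter, and its difference was 0.027 ± 1.21. Col19a1 was well above background on both GW3965 arrays and 1 DMSO array, and its difference was 0.0043 ± 0.19.

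Outside these classes, Col18a1, the precursor of endostatin, read 4.20 and 3.78 with GW3965, against 4.16 and 3.92 with DMSO, which overlapped, with a difference of -0.052 ± 0.24. Col7a1, the anchoring fibril chain under epithelia, read 0.043 and 0.98 with GW3965, against -0.0077 and 1.10 with DMSO, a difference of -0.036 ± 0.51. Neither showed a shift between treatments beyond its error. The transmembrane chains were Col23a1, at -4.66 and -4.39 with GW3965, against -4.59 and -4.42 with DMSO, and Col25a1, which is found in amyloid plaques of the brain, at -3.33 and -3.28 with GW3965, against -3.22 and -3.55 with DMSO. They differed by -0.016 ± 0.21 and 0.083 ± 0.21, and a probe of Col23a1 other than the brightest gave 0.11, with the other sign.

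Col8a2, a short chain of networks under endothelium, and Col15a1, a multiplexin of vessel and muscle basement membranes, had the largest higher means, and both were dim. Col8a2 read -5.21 and -4.51 with GW3965, against -5.49 and -5.43 with DMSO, and its probe was well above background on both GW3965 arrays and on 0 DMSO arrays. Col8a2 was thus kept through the arrays on which it read higher. The fitted difference was 0.60 ± 0.29, or 1.51-fold, with an adjusted p of 1.00 in limma. Its confidence interval ran from -0.17 to 1.36, which includes no change. A lower bound was sought from the higher of its DMSO signal and the lowest signal well above background. This left the DMSO mean at -5.46, as measured, so the 1.51-fold is the fitted difference and not a lower bound. Col15a1 read -4.05 and -5.19 with GW3965, against -4.79 and -5.50 with DMSO, with both GW3965 arrays and 1 DMSO array well above background. Its treatments overlapped, and the difference was 0.52 ± 0.47.

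The samples lettered b differed from those lettered a far more often. In a limma fit of treatment and letter, a gene's own error is how far its gap between letters differs between treatments (1 residual degree of freedom). Each letter holds 1 array of each treatment. If a letter is 1 animal or culture, its arrays are not independent, and the p-values for the letter do not measure the spread between animals or cultures. In this fit, 13 of the 30 genes (43.3%) had an adjusted p under 0.05 for the letter, against 21.5% of all genes. Of these, 7 were higher in b, against 12.2% of all genes, and 6 were lower, against 9.23%. A 2-fold or larger difference was seen in 8 of the 30 (26.7%), against 5.74% of all genes. The letters' arrays did not overlap in 23 of 30 genes (76.7%), against 66.4% of all genes. Genes that were higher and genes that were lower nearly balanced, so the median letter difference was 0.0092 against 0.065 for all genes, while the median size was 0.41 against 0.26. The sign of that small median turned under other scalings, to -0.090 with quantile normalization, -0.11 with median centring and -0.14 with normexp. Without the filter on dim probes, 4 of 43 collagen genes passed (9.3%), against 1.16% of all 35077 genes. They were Col11a2, Col12a1, Col22a1 and Col5a3, and the other 9 of the 13 lost their call, at adjusted p from 0.053 to 0.14.

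**Figure D2:**
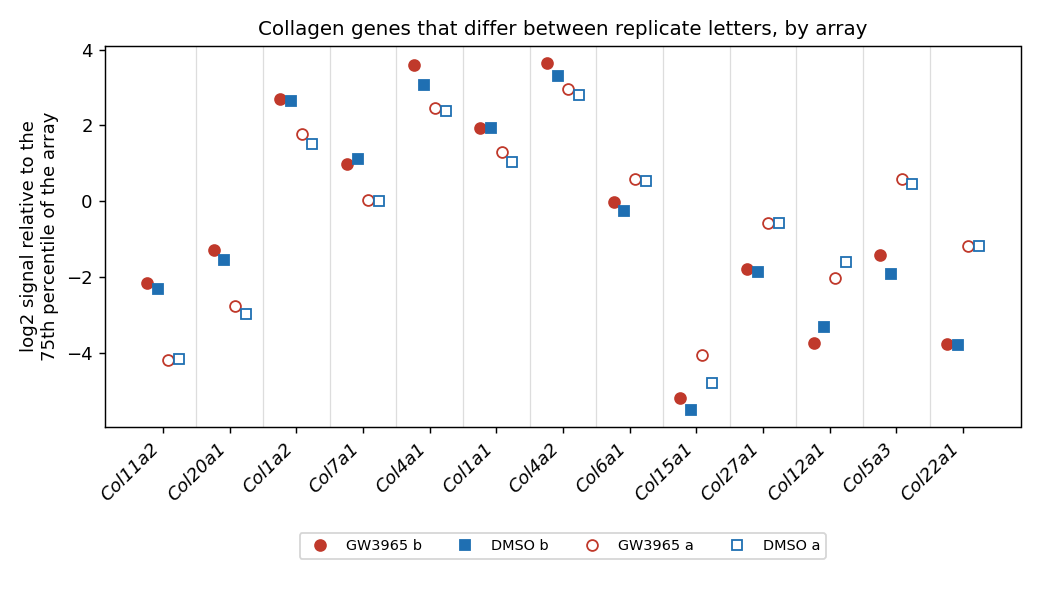
Log2 signal relative to the array's 75th percentile, on the vertical axis, for the 13 collagen genes that passed for the letter, ordered by letter difference from higher to lower in b. Filled symbols are b samples and open symbols a samples, circles GW3965 and squares DMSO, and in each gene the filled symbols lie on one side of the open ones.

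The genes lower in b came from several classes. Col22a1 (probe at chr15:71699345-71699404, mm9) had the largest difference, b minus a, of -2.59 ± 0.13 (SE), a 6.03-fold lower level (adjusted p = 0.00135). Its gaps were -2.58 with GW3965 and -2.60 with DMSO. Col5a3 (probe at chr9:20574592-20574651) differed by -2.19 ± 0.15 (4.55-fold lower, adjusted p = 0.00185), with gaps of -1.99 with GW3965 and -2.38 with DMSO. Both treatments thus showed the drop in each gene. Col12a1 was 3.29-fold lower (adjusted p = 0.00199), and Col27a1 was 2.40-fold lower (adjusted p = 0.00389). Col15a1 and Col6a1 passed with smaller falls, at -0.93 ± 0.15 and -0.70 ± 0.13.

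The genes higher in b held the common interstitial and basement membrane chains. Col1a2 differed by 1.05 ± 0.13 (2.06-fold higher, adjusted p = 0.00725) and Col1a1 by 0.78 ± 0.14 (1.72-fold, adjusted p = 0.0169). Their gaps were 0.94 with GW3965 and 1.15 with DMSO for Col1a2, and 0.64 with GW3965 and 0.91 with DMSO for Col1a1. So the type I chains rose together in b. In the same limma fit, Col4a1 differed by 0.91 ± 0.16 (adjusted p = 0.0156) and Col4a2 by 0.59 ± 0.13 (adjusted p = 0.0326). With quantile normalization neither type IV chain passed, at an adjusted p of 0.054 for Col4a1 and 0.065 for Col4a2. With median centring Col4a2 did not pass, at 0.058.

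The largest rises in b were in Col11a2 (probe at chr17:34203113-34203172, mm9), at 1.95 ± 0.13 or 3.85-fold (adjusted p = 0.00181), and in Col20a1, at 1.45 ± 0.13 or 2.73-fold (adjusted p = 0.00290). Col7a1 rose 2.03-fold (adjusted p = 0.00742). Within the fibrillar class, then, 3 chains were higher and 2 lower in b, with Col11a2 the highest and Col5a3 the lowest. Chains of types XI and V are known to share fibrils. The other calls were 1 higher and 2 lower among FACIT chains, 2 higher and 0 lower in type IV, 0 higher and 1 lower in type VI, and 1 lower multiplexin. Col3a1 (0.35 ± 0.13, adjusted p = 0.108) and Col18a1 (-0.33 ± 0.13, adjusted p = 0.129) did not pass.

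**Figure D3:**
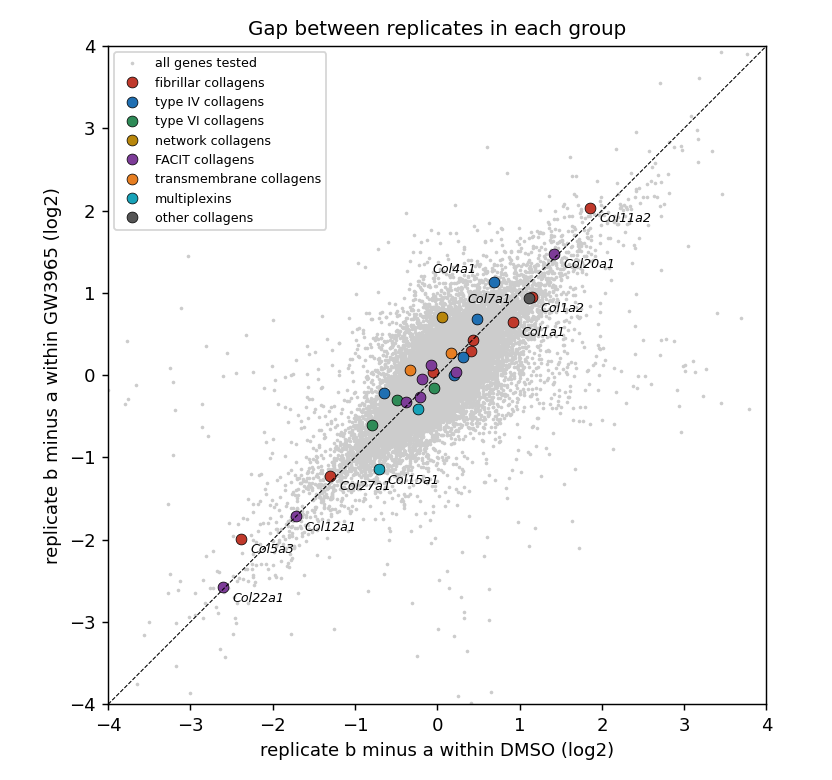
Gap between samples b and a (b minus a, log2) with GW3965 on the vertical axis and with DMSO on the horizontal axis, one point per measured collagen gene over all measured genes in grey, drawn within ±4 on each axis (11 genes lie outside). The collagen points lie near the diagonal, with Col22a1 at the low end and Col11a2 at the high end.

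The gaps ran the same way with each treatment in 26 of 30 collagen genes (86.7%), against 75.1% of all genes. Across the 30 genes Pearson's r between the gap with GW3965 and that with DMSO was 0.97, and 0.72 across all 24637. These are descriptions across genes, which are not independent replicates, and both gaps share the slide and its layout. Where chains lie side by side in the genome, their letter differences were 0.91 and 0.59 for Col4a1 and Col4a2, 0.35 and 0.43 for Col3a1 and Col5a2, -0.099 and -0.70 for Col6a2 and Col6a1, and 0.099 and -0.43 for Col4a6 and Col4a5.

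Probes of one gene gave the same sign for the letter where several were measured. Of the 43 genes, 25 had 1 probe and 18 had several, and in 6 several probes were measured. The sign of the letter difference was the same for all measured probes of each of the 6. Only Col20a1 of the 6 passed for the letter, and every other collagen gene that passed rests on 1 measured probe. The sign of GW3965 minus DMSO differed between probes in 2 of the 6, Col23a1 and Col4a4.

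The genes that make, cut, bind, remodel or accompany collagen, and those of the TGF-beta axis, also showed no call for GW3965 against DMSO. In each of these 7 lists, and in 5 lists of cell type markers, 0 members passed in limma, and 0 had an unadjusted p under 0.05. Among 19 genes of collagen folding and modification, all measured, the median log2 difference was 0.073. P3h2, a prolyl 3-hydroxylase, differed by 0.52 ± 0.58, P3h3 by 0.19 ± 0.22 and Plod1, a lysyl hydroxylase, by 0.13 ± 0.18. Each error exceeded the difference in this fit without the letter, where the gap between letters counts as error. P3h2, P3h3 and Plod1 each read higher with GW3965 than with DMSO in both letters. In propeptide cleavage and crosslinking (11 of 13 measured, median -0.011), Adamts14 differed by 0.095 ± 0.21, Loxl2 by -0.078 ± 0.18 and Bmp1, the C-propeptidase, by -0.071 ± 0.18. Among collagen receptors (9 of 10 measured, median -0.030), the kinases Ddr2 and Ddr1 differed by -0.19 ± 0.20 and -0.12 ± 0.21, and the integrin chain Itga1 by 0.21 ± 0.37. None of these went past its error in the fit without the letter.

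For collagen degradation (9 of 9 measured, median -0.097), the inhibitor Timp1 differed by -0.20 ± 0.18, and the metalloproteinases Mmp14 and Mmp13 by 0.28 ± 0.32 and -0.33 ± 0.38. Of the partners of basement membranes (15 of 15, median -0.026), the laminin chains Lama1, Lama4 and Lamb3 differed by -0.19 ± 0.20, 0.34 ± 0.44 and 0.18 ± 0.30. Of interstitial partners (11 of 12, median 0.044), Eln, which encodes elastin, differed by 0.39 ± 0.28, Fbn1 by 0.14 ± 0.27 and Vcan by 0.11 ± 0.22. In the TGF-beta axis, the best known inducer of collagen genes (12 of 12, median -0.042), Tgfb1 read 0.76 and 0.91 with GW3965, against 0.44 and 0.37 with DMSO. Its treatments did not overlap, and it differed by 0.43 ± 0.19, while Smad3, which carries the signal to the nucleus, differed by -0.15 ± 0.19. The treatments did not overlap in 3 of the 12 genes of this axis, against 16.0% of all genes. Plod1, Loxl2 and Timp1 of the lists above had no overlap either.

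By letter, the share of members called ran from 8.33% in the TGF-beta axis to 66.7% among basement membrane partners, against 21.5% of all genes (12.2% higher and 9.23% lower in b). Basement membrane partners were higher in b for 7 of 15 and lower for 3, with Nid1 at 1.25, Nid2 at 0.94 and Hspg2, or perlecan, at 0.78, while Lama3 was at -0.98. Crosslinking and cleavage had 4 higher and 0 lower of 11, with Loxl1 at 1.42 and Lox at 0.71. Degradation had 0 higher and 4 lower of 9, of which Mmp8, a collagenase of neutrophils, was at -2.46, and Mmp13, Mmp14 and Mmp2 at -0.70, -0.56 and -0.55. Mmp8 was dim: it read -6.26 on GW3965 b and was well above background on only 1 GW3965 array, so the size of its fall is uncertain. The called genes of these 2 lists thus lay on opposite sides of 0. Interstitial partners had 3 higher and 2 lower of 11, with Postn at 0.70 and the proteoglycan Dcn at -1.28. Receptors had 3 higher of 9 (Itga1, Itga10 and Itgb1). Folding, with 2 higher and 1 lower of 19 (15.8%), and the TGF-beta axis, with 1 higher of 12 (Smad7), had no larger a share of calls than all genes.

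Markers of cell types moved with the letter too. Of 9 measured hepatocyte markers, 8 were lower in b and 0 higher, and their summed level (linear, relative to the 75th percentile) was 1490 with GW3965 and 1740 with DMSO in b, against 2609 and 2425 in a. Endothelial markers were higher in b for 7 of 10 and lower for 0, at sums of 58.9 and 55.6 in b against 44.1 and 41.5 in a, with Clec4g at 2.02, Vwf at 1.64 and Stab2 at 1.497. The called hepatocyte and endothelial markers thus went opposite ways, and all 10 endothelial genes were measured. Kdr, the endothelial gene with the largest signal, was lower in b without passing. Its linear level was 13.5 with GW3965 and 13.2 with DMSO in b, against 17.9 and 16.7 in a. Stellate cell and fibroblast markers had 4 higher, led by Acta2 at 1.70, and 4 lower, such as Dcn, of 12 measured, with sums of 77.3 and 81.7 in b against 101 and 95.2 in a. Such sums weigh bright probes most: without Dcn the stellate sum turned round, to 49.99 and 51.3 in b against 29.9 and 26.5 in a. Without their own brightest gene, the hepatocyte, endothelial and macrophage sums kept their direction. Macrophage and leukocyte markers were lower for 5 of 8, with sums of 31.5 and 28.2 in b against 53.7 and 46.8 in a. Cholangiocyte markers had 2 higher, Krt19 at 2.53 and Epcam at 1.44, and 2 lower, of 6. Lrat and Krt7, defining markers of stellate cells and cholangiocytes, were well above background on at most 2 arrays and were not measured. Fewer cells of a type and less RNA per cell cannot be told apart in such samples, and the part of these markers in the collagen differences was not tested.

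**Figure D4:**
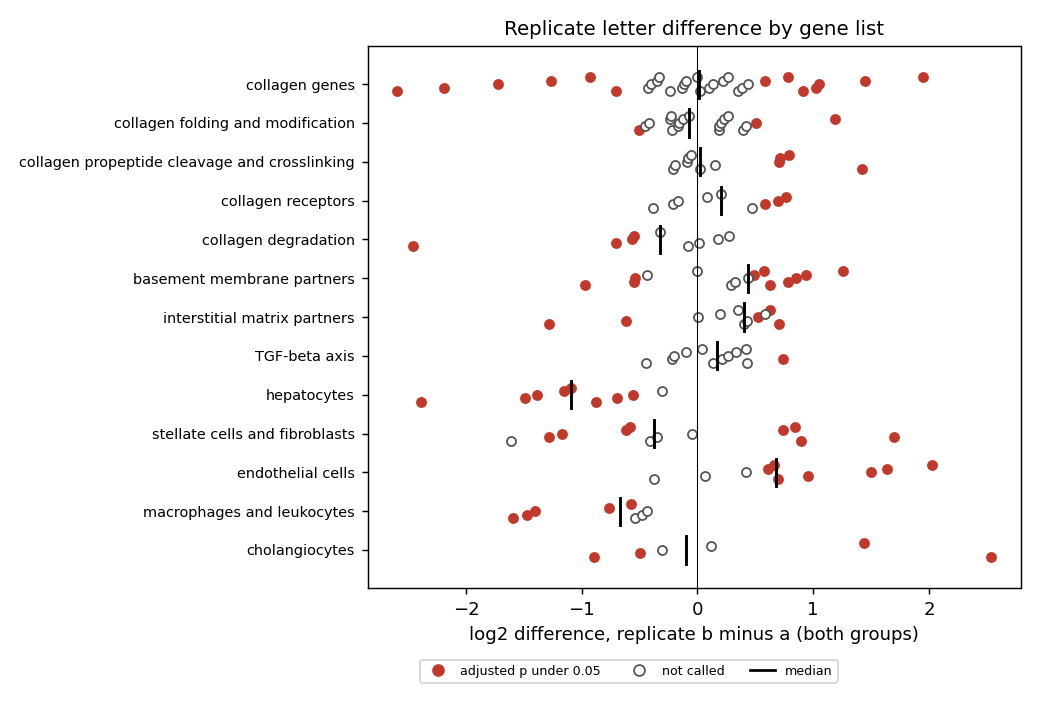
Letter difference (b minus a, log2) of each measured gene in the collagen, matrix and cell marker lists, one point per gene, filled where the adjusted p was under 0.05 in limma, with the bar at the median of a list. Hepatocyte markers sit mostly below 0 and endothelial markers mostly above it, while collagen genes spread to both sides.

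Between treatments the marker sums overlapped: for hepatocytes they were 1490 to 2609 with GW3965 and 1740 to 2425 with DMSO, and for stellate cells and fibroblasts 77.3 to 101 with GW3965 and 81.7 to 95.2 with DMSO (without Dcn, 29.9 to 49.99 with GW3965 and 26.5 to 51.3 with DMSO). The stellate marker with the smallest p was Pdgfrb, the receptor for platelet-derived growth factor, at 0.39 ± 0.18. In the other lists those with the smallest p included Hnf4a (-0.25 ± 0.71), Tek (0.25 ± 0.21), Lyz2 (-0.30 ± 0.27) and Spp1 (-0.23 ± 0.19). None passed the test, and their part in the small collagen differences was not tested.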

How the data were processed

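Total RNA of 4 samples (2 GW3965, 2 DMSO) was hybridised in 1 colour to Agilent design 028005. Spot intensity, per the file headers, is a linear processed signal that Agilent Feature Extraction 10.7.3.1 corrected for background (version 11.5.1.11 in the submitters' processing notes). Over 62976 features, the deposited value table differed from it by 0. The scanner software's flags for signal well above background and for outliers, also deposited by the authors, are read as yes or no.

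Unflagged spots were averaged per probe on the log2 scale and each array's 75th percentile was subtracted. A probe was kept if both arrays of 1 treatment or more read it well above background, and the brightest probe stood for a gene, giving 24637 genes. RefSeq accessions (GRCm38.p6) named 26762 probes, and 28919 kept the file's name; probe positions are mm9. Under R 4.3.3, files were read by data.table (version 1.17.8), and limma 3.58.1 fitted treatment alone (prior 2.72 and residual 2 degrees of freedom) or treatment with letter (4.65 and 1), two-sided, with Benjamini-Hochberg adjustment over all genes at 0.05. The script was tested on simulated data. For the fit of treatment alone these held no gap between letters, so they do not show how that fit performs here. Alternatives were other scalings, normexp (offset 50), filters, probe rules, an intensity trend in limma, the replicate block and leaving out each array. Figures used matplotlib 3.10.9.

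The members and lists were chosen with earlier results of these data known, and no list is independent support. Every collagen gene is accounted for. Named with values were all measured collagen genes, up to 3 genes with the smallest p of each other list, Abca1, Srebf1 and genes whose probes disagree in sign. One gene that this rule names is not reported here. Further list genes named for the letter were chosen after their values were seen.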

Additional observations from a re-analysis of the deposited data

How the results depend on the processing

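For GW3965 against DMSO, 0 collagen genes passed in any alternative run: other scalings, normexp background, no filter or a stricter one, the mean of a gene's probes or each probe, an intensity trend in limma, the replicate block, and each array left out. Over all genes the count was 0 except with the replicate block, at 15, and without single arrays, at 0 to 1 (1 without DMSO replicate b). The main fit did not treat the letters as pairs, because the labels do not say what they mark and 2 pairs cannot settle it. Gaps correlated at 0.72 across genes. In the replicate block, Col12a1, Col15a1 and Col8a2 had an unadjusted p under 0.05, and the smallest adjusted p of a collagen gene was 0.717. The median collagen difference stayed above 0 in every setting. The median gap of collagen genes with GW3965 was 0.042 and went below 0 under quantile normalization, median centring, normexp and no filter (-0.039, -0.089, -0.16 and -0.12). For the letter, 13 collagen genes became 11 under quantile normalization, 18 under normexp and 4 with no filter, and 5291 of all genes became 3371, 8197 and 407. The causes of these changes were not tested.

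The treatment difference changed sign for Col19a1 (quantile -0.084, median centring -0.046, normexp -0.016), Col22a1 (-0.00037, -0.024 and -0.029), Col27a1 (median centring -0.0084) and Col23a1 (mean of probes 0.049). The letter difference did so for Col19a1 (quantile -0.068, normexp -0.18), Col23a1 (normexp -0.15), Col4a6 (median centring -0.023), Col5a2 (normexp -0.076), Col8a2 (normexp -0.12) and Col9a1 (quantile -0.13, median centring -0.098, normexp -0.17), 9 of 207 values, all for genes not among the 13. Median centring moves the all-gene letter median by -0.12. Leaving out 1 array leaves the letters unequal between treatments, so part of a letter gap enters the difference. The treatment difference then ran from lowest to highest as follows: Col11a2 -0.96 to 1.08, Col12a1 -1.29 to 0.43, Col14a1 -0.11 to 0.27, Col15a1 -0.048 to 1.09, Col16a1 -0.16 to 0.029, Col18a1 -0.26 to 0.16, Col19a1 -0.11 to 0.12, Col1a1 -0.32 to 0.59, Col1a2 -0.42 to 0.73, Col20a1 -0.52 to 0.96, Col22a1 -1.27 to 1.33, Col23a1 -0.15 to 0.12, Col25a1 -0.080 to 0.25, Col27a1 -0.61 to 0.69, Col4a1 -0.27 to 0.86, Col4a2 -0.095 to 0.59, Col4a6 -0.035 to 0.16, Col5a2 -0.25 to 0.19, Col5a3 -0.88 to 1.51, Col6a1 -0.25 to 0.54 and Col7a1 -0.59 to 0.52. The other 9 measured genes kept their sign. Signal near background limits Col8a2, Col15a1 and Col19a1, and 2 arrays per treatment limit every interval.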
